A study of Mus musculus with 2 samples.

Results

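The genes of the mouse mitochondrial chromosome were followed in whole heart. They are the 37 genes whose symbol starts with mt-, of 55536 genes in the deposited gene table, and comprise 2 rRNA genes, 13 protein-coding genes and 22 tRNA genes. The study sequenced total RNA from the hearts of aged male B6CASTF1/J mice, the F1 offspring of C57BL/6 and CAST parents, at an age between 18 and 20 months. It holds 2 libraries of this 1 group, replicate 2 and replicate 1, with no treatment, genotype or age set against them. Both were made from 300 ng of RNA with ERCC spike-in RNAs, by a stranded preparation that lowers rRNA. The labels give the libraries separate tissue samples but the same donor identifier, so whether they came from separate mice cannot be told. A difference between them may lie in the hearts or tissue pieces or in how each library was made. These cannot be told apart, and no p-value is given.

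Mitochondrial DNA is copied and read inside the organelle, and its 13 proteins are all core subunits of the machinery of oxidative phosphorylation, on which the beating heart depends for ATP. Complex I, which oxidises NADH, takes 7 of them, complex III takes cytochrome b, complex IV (cytochrome c oxidase) takes 3 and complex V (ATP synthase) takes 2. Complex II takes none. Each DNA strand is transcribed as a long RNA, and the tRNAs that lie between the other genes mark the places where it is cut into rRNAs, tRNAs and mRNAs. The other subunits are encoded in the nucleus and imported.

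Of the 37 genes, 28 lie on the plus strand and 9 on the minus strand of the mitochondrial chromosome (build mm10). The plus strand carries both rRNAs, 12 mRNAs and 14 tRNAs. The minus strand carries 8 tRNAs and 1 mRNA, mt-Nd6. The packing is so close that the borders matter for counting, and 4 of them are printed here from the GENCODE M21 transcripts. The first shows how a tRNA separates 2 longer genes with no base between them: the end of mt-Rnr2 and the start of mt-Nd1 in lower case, and mt-Tl1 (a leucine tRNA) in capitals, at chrM:2651-2775 on the plus strand.
mt-Rnr2, mt-Tl1, mt-Nd1: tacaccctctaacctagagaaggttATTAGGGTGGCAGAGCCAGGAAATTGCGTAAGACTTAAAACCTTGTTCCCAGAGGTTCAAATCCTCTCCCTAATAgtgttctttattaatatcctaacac

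In 2 places the coding regions of neighbouring subunits overlap by more than 1 base on the same strand, and each pair is known to stay on a shared mRNA in mammals. The 43 bases in capitals belong to both mt-Atp8 and mt-Atp6 (chrM:7912-7984, plus strand), and the 7 in capitals to both mt-Nd4l and mt-Nd4 (chrM:10147-10193, plus strand). The ends of mt-Nd5 (chrM:13532-13565, plus strand) and mt-Nd6 (chrM:13552-13585, minus strand) overlap tail to tail on opposite strands. Their 14 shared bases, in capitals, are the reverse complement of each other.
mt-Atp8, mt-Atp6: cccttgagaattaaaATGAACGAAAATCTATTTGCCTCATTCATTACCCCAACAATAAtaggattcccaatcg
mt-Nd4l, mt-Nd4: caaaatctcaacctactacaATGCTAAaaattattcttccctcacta
mt-Nd5, end: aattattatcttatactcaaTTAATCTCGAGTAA
mt-Nd6, end: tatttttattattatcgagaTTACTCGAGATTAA

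The mRNAs run between 204 bases (mt-Atp8) and 1824 bases (mt-Nd5) in the annotation. For 3 of them, mt-Co3, mt-Nd4 and mt-Cytb, the annotated gene ends 1 base into its last codon. The last T of mt-Co3 is printed further on. In mammals such stop codons are known to be finished by the poly(A) tail.

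A second feature of sequence bears on the counting of 8 of the 13 mRNAs, which share at least 1 stretch of 100 bases with another gene. A pseudogene was counted as a nuclear copy when 50% or more of its stretches of 100 bases are found unchanged in a mitochondrial transcript, and 7 met this. All lie on the minus strand of chromosome 1 between 24611535 and 24616197, and they follow the same gene order as the mitochondrial chromosome. They copy mt-Co1 (Gm29216), mt-Co2 (Gm28661), mt-Atp6 (Gm10925), mt-Co3 (Gm28437), mt-Nd3 (Gm28438), mt-Nd4l (Gm10222) and mt-Nd4 (Gm28439). The copy nearest the threshold had 96.7% of its stretches in mitochondrial transcripts, and the closest pseudogene left out, Gm13341 on chromosome 2, had 15.4%.

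Over the aligned bases 5 of the 7 copies are identical to the gene they copy. Gm28438 differs from mt-Nd3 by T3C, where the first letter is the mitochondrial base and positions count from the 5′ end of the mitochondrial gene. Gm29216 differs from mt-Co1 by T1056A, C1057T, A1059G, A1060G, C1062A and A1066T, all close to the 5′ end of this copy, which starts at position 1054 of mt-Co1. The 3 pairs below are the ends of the genes whose counts were divided most with their copies, and show how little separates them. Capitals mark the bases by which the mitochondrial gene runs past the annotated copy, and the rest is the same in both. They come from chrM:7652-7696, chrM:8563-8607 and chrM:9346-9390 on the plus strand, and from chr1:24614885-24614926, chr1:24613974-24614015 and chr1:24613189-24613232 on the minus strand.
mt-Co2: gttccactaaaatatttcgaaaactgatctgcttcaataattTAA
Gm28661: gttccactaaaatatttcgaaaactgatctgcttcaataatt
mt-Atp6: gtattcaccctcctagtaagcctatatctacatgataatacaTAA
Gm10925: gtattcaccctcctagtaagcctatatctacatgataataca
mt-Co3: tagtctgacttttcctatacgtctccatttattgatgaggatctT
Gm28437: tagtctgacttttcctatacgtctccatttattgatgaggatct

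The libraries held 37281459 expected counts on genes in replicate 2 and 38858481 in replicate 1. Mitochondrial genes took 34.4% of them in replicate 2 and 29.3% in replicate 1, and the 7 nuclear copies a further 4.11% in replicate 2 and 3.18% in replicate 1. Exact binomial 95% intervals of the mitochondrial share, 34.38 to 34.41% in replicate 2 and 29.30 to 29.33% in replicate 1, cover counting error only and lie far apart at this depth. The gap came mainly from mRNA. The 2 rRNAs held 19.96% of counts in replicate 2 and 18.83% in replicate 1, while the 13 mRNAs held 14.4% in replicate 2 and 10.5% in replicate 1. Nuclear protein-coding genes held 57.1% in replicate 2 and 62.5% in replicate 1. Fewer mitochondria per cell, less RNA per mitochondrion, a smaller share of muscle cells and a difference in library preparation cannot be told apart in these libraries. None was tested as a cause, and the levels of cardiomyocyte markers are given further below.

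**Figure D1:**
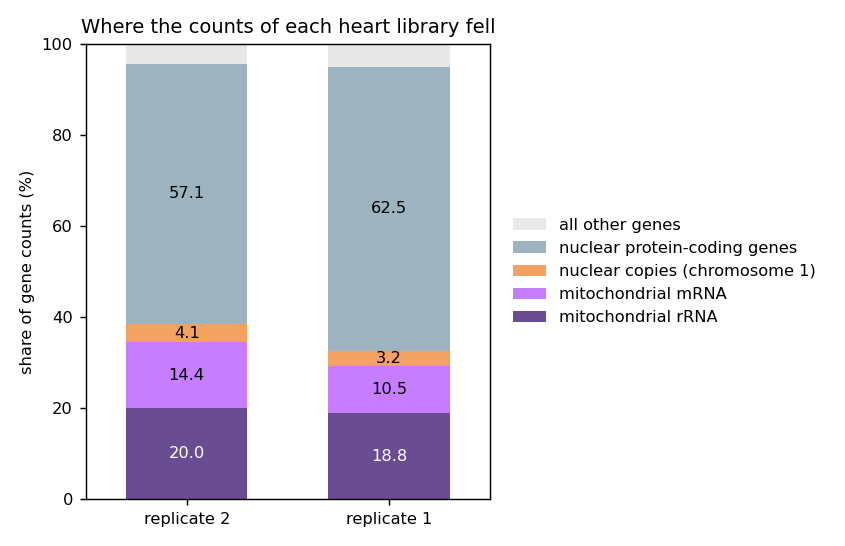
Stacked bars give the share of gene counts, in percent, from mitochondrial rRNA, mitochondrial mRNA, the nuclear copies on chromosome 1, nuclear protein-coding genes and all other genes in each library. The mRNA band is 14.4% in replicate 2 and 10.5% in replicate 1, a wider gap than that of the rRNA band, 19.96% in replicate 2 and 18.83% in replicate 1.

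The rRNAs of the mitochondrial ribosome had the highest levels of all 37 genes. Levels are given as TPM, the deposited counts per base of effective length, scaled to a fixed sum in each library. mt-Rnr2, the large-subunit rRNA, was at 118334 TPM in replicate 2 and 120809 TPM in replicate 1. mt-Rnr1, the small-subunit rRNA, was at 78620.1 TPM in replicate 2 and 67668 TPM in replicate 1. mt-Rnr2 thus stood 1.51 times as high as mt-Rnr1 in replicate 2 and 1.79 times in replicate 1. They made up 58.0% of mitochondrial counts in replicate 2 and 64.2% in replicate 1, or 51.9% in replicate 2 and 57.9% in replicate 1 once the counts of the copies were added to the mitochondrial total. The preparation lowers rRNA by an amount that was not measured, so these levels do not give the ratio of rRNA to mRNA in the tissue. Neither rRNA shares a 100-base stretch with another gene.

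mt-Co2, which encodes the cytochrome c oxidase subunit that receives electrons from cytochrome c, was listed lowest of the 13 mRNAs in the gene table, and its copy took nearly all of the shared counts. mt-Co2 itself held 9132 counts in replicate 2 and 8579 in replicate 1, while Gm28661 held 718057 in replicate 2 and 591633 in replicate 1. Its deposited level was 509 TPM in replicate 2 and 475 TPM in replicate 1. The mitochondrial gene was thus given 1.26% of the pair's counts in replicate 2 and 1.43% in replicate 1. At mt-Atp6, the proton-channel subunit of ATP synthase, the gene received 58.8% of the pair's counts in replicate 2 and 52.1% in replicate 1. At mt-Co3, a core subunit of cytochrome c oxidase, it received 69.5% in replicate 2 and 68.3% in replicate 1. mt-Co1, the catalytic subunit with the heme and copper centre, kept 88.8% in replicate 2 and 90.8% in replicate 1. For mt-Nd3, mt-Nd4l and mt-Nd4 all counts went to the mitochondrial gene, and their 3 copies were at 0 in both libraries. The copies together held 10.7% of mitochondrial plus copy counts in replicate 2 and 9.77% in replicate 1. The files do not tell which reads of a pair came from the nucleus, so below the level of a gene with its copy is also given. It is the sum of their counts over the effective length of the mitochondrial gene, on the TPM scale of the library.

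**Figure D2:**
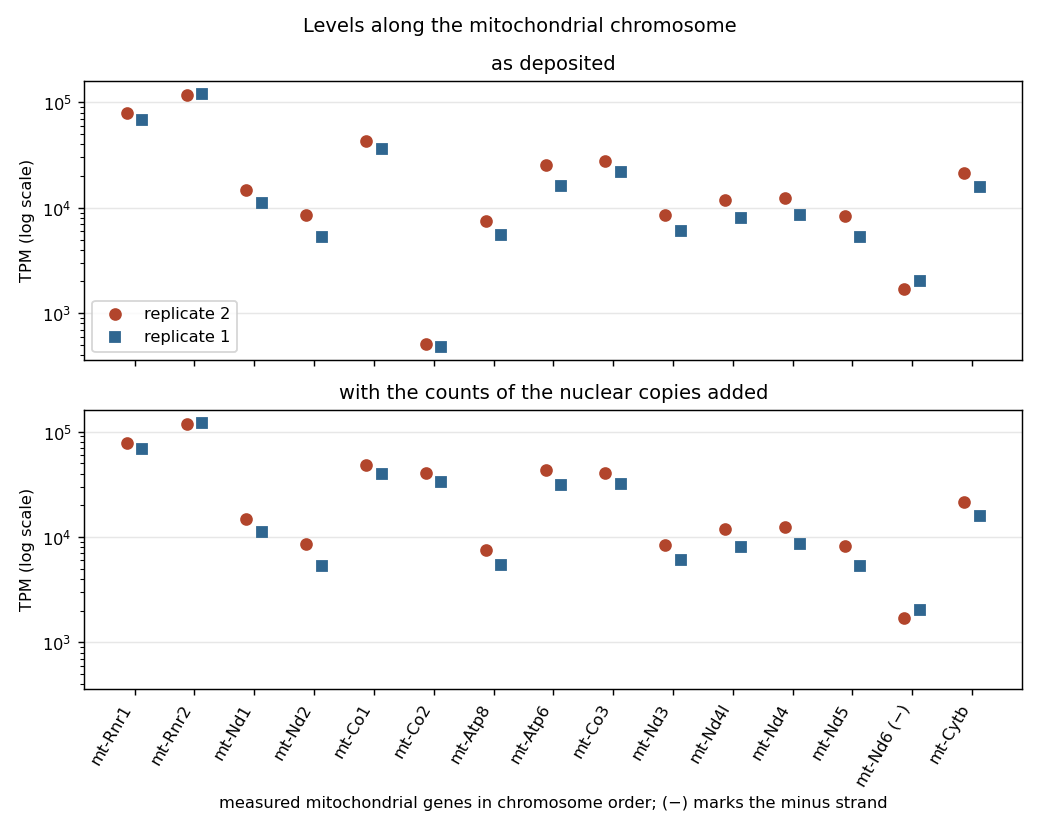
TPM on a log axis is plotted for the 15 measured mitochondrial genes in chromosome order, as deposited (upper panel) and with the counts of the nuclear copies added (lower panel); circles are replicate 2 and squares replicate 1. With its copy, mt-Co2 lies at 40547 TPM in replicate 2 and 33250 TPM in replicate 1, close to mt-Atp6 and mt-Co3, and mt-Nd6 is then the lowest in both libraries.

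As deposited, mt-Co1 was at 42699 TPM in replicate 2 and 35808 TPM in replicate 1, and mt-Co3 at 27856 TPM in replicate 2 and 21773 TPM in replicate 1. mt-Atp6 was at 25541 TPM in replicate 2 and 16185 TPM in replicate 1. With the copies added, the 3 subunits of cytochrome c oxidase and mt-Atp6 formed a top tier. mt-Co1 was at 48076 TPM in replicate 2 and 39442 TPM in replicate 1. mt-Co2 was at 40547 TPM in replicate 2 and 33250 TPM in replicate 1. Its level was 0.843 of that of mt-Co1 in each library, against 0.0119 in replicate 2 and 0.0133 in replicate 1 without the copies. mt-Co3 was at 40071 TPM in replicate 2 and 31867 TPM in replicate 1, and mt-Atp6 at 43419 TPM in replicate 2 and 31048 TPM in replicate 1. Means over the libraries were 43759 ± 6105 TPM for mt-Co1, 37234 ± 8748 for mt-Atp6, 36898 ± 5160 for mt-Co2 and 35969 ± 5801 for mt-Co3 (SD, n = 2). These SDs give the spread between the libraries and do not measure the error of a difference between genes. Within each library mt-Co1 was the highest, and the order of the other 3 differed between the libraries.

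mt-Cytb, the only mitochondrial subunit of complex III, came next among the mRNAs at 21548 TPM in replicate 2 and 15721 TPM in replicate 1. It shares no stretch with another gene, and its value therefore does not depend on the division of counts.

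The 7 mRNAs of complex I lay lower still. mt-Nd1, a membrane-arm subunit next to the quinone site, led them with 14768 TPM in replicate 2 and 11182 TPM in replicate 1. mt-Nd4, a proton-pumping subunit, was at 12502 TPM in replicate 2 and 8625 TPM in replicate 1. mt-Nd4l, whose coding region overlaps that of mt-Nd4 at the 7 bases shown above, was at 11802 TPM in replicate 2 and 8012 TPM in replicate 1. The members of this pair were thus close in the gene table, with mt-Nd4l at 0.944 of mt-Nd4 in replicate 2 and 0.929 in replicate 1. They were not close in the second quantification, described below, where mt-Nd4l was at 0.0193 of mt-Nd4 in replicate 2 and 0.510 in replicate 1. The remaining plus-strand subunits of complex I were mt-Nd2 and mt-Nd5, both proton pumps, and the small membrane subunit mt-Nd3. mt-Nd3 was at 8459 TPM in replicate 2 and 6018 TPM in replicate 1. mt-Nd2 was at 8569 TPM in replicate 2 and 5336 TPM in replicate 1, and mt-Nd5 at 8304 TPM in replicate 2 and 5291 TPM in replicate 1. These 3 thus lay between 8304 and 8569 TPM in replicate 2 and between 5291 and 6018 TPM in replicate 1. Their SDs between the libraries, 1726 to 2286 TPM, do not measure the error of a difference between genes.

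mt-Atp8, the small second mitochondrial subunit of ATP synthase, was at 7458 TPM in replicate 2 and 5467 TPM in replicate 1. Although its coding region overlaps that of mt-Atp6, its level was 0.172 of that of mt-Atp6 with its copy in replicate 2 and 0.176 in replicate 1. Against mt-Atp6 as deposited, without the copy, it was 0.292 in replicate 2 and 0.338 in replicate 1. In the second quantification, described below, mt-Atp8 was at 0 in both libraries. mt-Atp8 is the shortest mRNA, and the effective length used for TPM is 99 bases less than its length, so its level rests on the smallest number of start positions.

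mt-Nd6, a membrane subunit of complex I, was the only mRNA of the minus strand and, once the copies were added, the lowest of the 13. It was at 1705 TPM in replicate 2 and 2022 TPM in replicate 1. The median of the 12 plus-strand mRNAs was 12152 TPM in replicate 2 and 8318 TPM in replicate 1. mt-Nd6 therefore stood at 14.0% of that median in replicate 2 and 24.3% in replicate 1 (19.2% ± 7.27, SD, n = 2), and at 12.5% in replicate 2 and 20.4% in replicate 1 with the copies added. Its tail-to-tail neighbour mt-Nd5 was 4.87 times as high in replicate 2 and 2.62 times in replicate 1. All counts of the 9 minus-strand genes were those of mt-Nd6, and made up 0.171% of mitochondrial counts in replicate 2 and 0.230% in replicate 1. The libraries are stranded per the labels, but whether strand was used in counting is not given in the sources used here. If it was not, reads of the opposite strand over mt-Nd6 would be part of its value.

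The 22 tRNA genes, between 59 and 75 bases long, had no count in either library or table. On the plus strand they are mt-Tf, mt-Tv, mt-Tl1, mt-Ti, mt-Tm, mt-Tw, mt-Td, mt-Tk, mt-Tg, mt-Tr, mt-Th, mt-Ts2, mt-Tl2 and mt-Tt, and on the minus strand mt-Tq, mt-Ta, mt-Tn, mt-Tc, mt-Ty, mt-Ts1, mt-Te and mt-Tp. Each carries 1 amino acid, named by the letter after the T, to the mitochondrial ribosome. The gene table gives each an effective length of 0, so a read could not have been assigned to them there. These zeros say nothing of the tRNA levels, and no upper limit is given.

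Levels in replicate 2 were set against those in replicate 1 after scaling the libraries by TMM, which centres the bulk of genes (over the 12189 genes whose mean TPM reached 1, the median log2 ratio was -0.019). All 12 plus-strand mRNAs were higher in replicate 2, by log2 ratios of 0.23 to 0.81, or 0.41 to 0.81 with the copies added. The direction turned for mt-Nd4l in the second table (-3.92) and for mt-Co2 by the posterior mean count (-0.14), and mt-Atp8 was at 0 in the second table. At least 1.5-fold was reached by 6 of 13 mRNAs, all higher in replicate 2, against 2.17% of all genes higher and 2.88% lower at that size. They were mt-Nd2, mt-Atp6, mt-Nd5, mt-Nd4l, mt-Nd4 and mt-Nd3. The ratio of deposited TPM put 3 mRNAs past that size, mt-Nd2, mt-Atp6 and mt-Nd5. In the second table mt-Nd2, mt-Nd5 and mt-Nd4 were past it and higher in replicate 2, mt-Nd4l was past it and lower, and mt-Atp6 (log2 ratio 0.56) and mt-Nd3 (0.29) did not reach it. Just inside the threshold was mt-Nd3 at 1.54-fold, and just outside were mt-Cytb (log2 ratio 0.58, counting interval 0.58 to 0.59) and mt-Atp8 at 1.49-fold. No mRNA reached 2-fold, against 0.533% of all genes higher and 1.13% lower. When the 24042 genes with any count are taken as the background, 15.6% were at least 1.5-fold higher and 8.11% lower. Because all members are read from the same 2 long precursors and compared in the same 2 libraries, they are not independent of each other.

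mt-Nd2 had the highest ratio, with 246676 counts in replicate 2 and 154599 in replicate 1 (log2 ratio 0.81, counting interval 0.80 to 0.82). mt-Nd5 followed at 0.78, from 439158 counts in replicate 2 and 281611 in replicate 1. By complex, the median log2 ratio was 0.66 for the 7 mRNAs of complex I, 0.58 for mt-Cytb and 0.41 for the 3 of complex IV with their copies. mt-Atp6 had 0.79 alone and 0.61 with its copy, and mt-Atp8 had 0.58.

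mt-Nd6 did not share the higher level in replicate 2. It had 21955 counts in replicate 2 and 26207 in replicate 1 (log2 ratio -0.12, counting interval -0.14 to -0.09). Under the 5 scalings tried its ratio lay between -0.20 and -0.024, while that of mt-Nd5 lay between 0.70 and 0.87. From deposited TPM the ratio was -0.25 for mt-Nd6 and 0.65 for mt-Nd5. In the second table it was -0.38 for mt-Nd6 and 0.71 for mt-Nd5. The rRNAs were higher in replicate 2 by less than most mRNAs, with log2 ratios of 0.34 for mt-Rnr1 and 0.10 for mt-Rnr2. For mt-Rnr2 the direction depended on the scale, since its TPM was lower in replicate 2 (log2 ratio of deposited TPM -0.030).

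**Figure D3:**
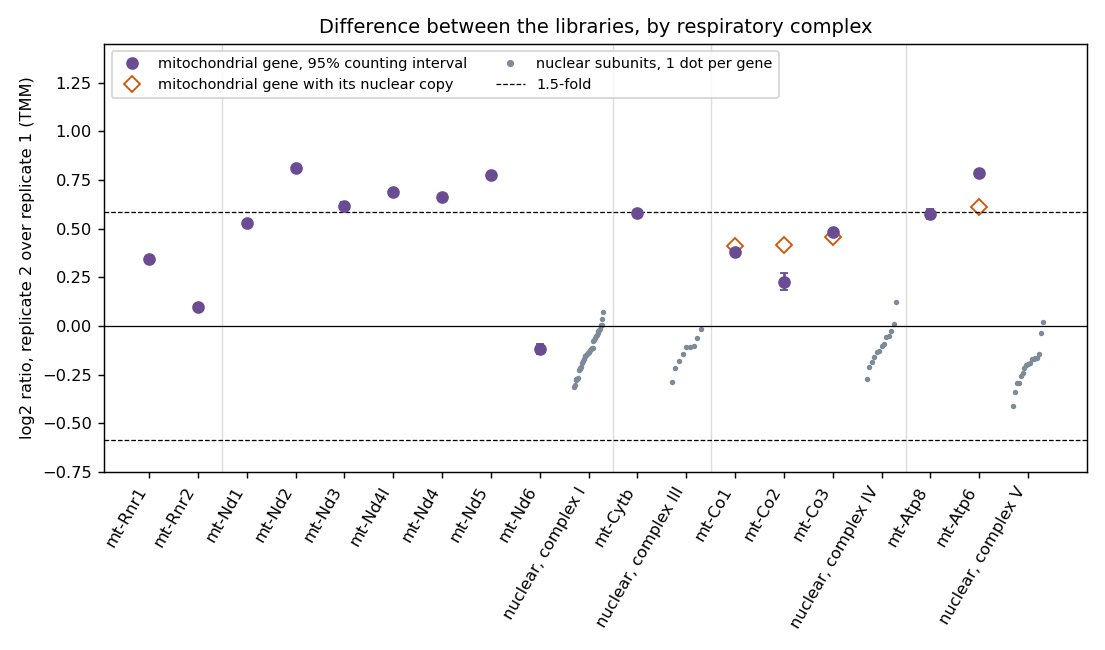
Points give the log2 ratio of replicate 2 over replicate 1 after TMM scaling for each mitochondrial gene, with its 95% counting interval; open diamonds add the nuclear copy, grey dots are the nuclear subunits of the same complex and dashed lines mark 1.5-fold. The 12 plus-strand mRNAs lie between 0.23 and 0.81 in the gene table (mt-Nd4l turns to -3.92 in the second table and mt-Co2 to -0.14 by posterior mean count), mt-Nd6 at -0.12 and the nuclear subunits between -0.41 and 0.12.

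The nuclear partners of the mitochondrial subunits mostly had log2 ratios below 0. Of 76 nuclear subunits of complexes I, III, IV and V, 0 of 76 were at least 1.5-fold apart in either direction, beside 2.17% of all genes higher and 2.88% lower. A log2 ratio below 0 was found for 69, but the share of all genes below 0 was not counted. The median was -0.15, beside -0.019 over all genes tested. Medians below 0 were not particular to these subunits, with -0.10 for the cardiomyocyte markers and -0.08 for complex II. The summed level of the 76 was 42423 TPM in replicate 2 and 51376 TPM in replicate 1. TPM has a fixed sum, and all nuclear protein-coding genes together also held less of it in replicate 2, 36.1% against 41.8% in replicate 1. Atp5b, the catalytic subunit of ATP synthase and the highest of the 76, was at 2820.1 TPM in replicate 2 and 3703 TPM in replicate 1, a log2 ratio of -0.19. Atp5a1, its partner in the catalytic head, was at 1435 TPM in replicate 2 and 1762 TPM in replicate 1 (log2 ratio -0.17). The lowest listed subunit of complex V was Atp5g2, a gene for the rotor ring subunit, at 14.0 TPM in replicate 2 and 20.4 TPM in replicate 1. In complex IV, Cox4i1 (a regulatory subunit) was at 1555 TPM in replicate 2 and 1925 TPM in replicate 1, and Cox6b1 was at 1444 TPM in replicate 2 and 1801 TPM in replicate 1. Cox8a, the liver-type form of a small subunit, was lowest there at 122 TPM in replicate 2 and 139 TPM in replicate 1. In complex III, Uqcrq was at 895 TPM in replicate 2 and 1044 TPM in replicate 1, Uqcrc1 (a core protein) at 784 TPM in replicate 2 and 939.9 TPM in replicate 1. The lowest by mean TPM was Uqcrc2, the other core protein, at 417 TPM in replicate 2 and 442 TPM in replicate 1. In complex I, the accessory subunits Ndufa3 and Ndufb8 had the highest mean TPM, at 719 and 647 TPM in replicate 2 and 774 and 813.5 TPM in replicate 1. Ndufb4 was lowest at 67.6 TPM in replicate 2 and 49.6 TPM in replicate 1.

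In the gene table all 12 plus-strand mitochondrial mRNAs, with their copies, stood above every nuclear subunit of complexes I, III, IV and V in both libraries. This does not extend to the second quantification, described below, where mt-Atp8 was at 0 in both libraries and mt-Nd4l at 271 TPM in replicate 2. The 13 mitochondrial mRNAs made up 81.9% of the summed TPM of these 13 and the 76 nuclear subunit mRNAs in replicate 2 and 73.4% in replicate 1 (77.7% ± 5.98, SD, n = 2). With the copies' counts added, the share was 86.3% in replicate 2 and 79.8% in replicate 1. By complex, again with copies, it was highest for complex IV, at 91.8% in replicate 2 and 88.6% in replicate 1. It was 84.3% in replicate 2 and 75.9% in replicate 1 for complex I, and 80.3% in replicate 2 and 71.2% in replicate 1 for complex III. Complex V had the lowest, 79.2% in replicate 2 and 68.4% in replicate 1. Within complex I the median mitochondrial mRNA was 30.6 times the median nuclear one in replicate 2 and 17.3 times in replicate 1. Within complex IV, with copies, it was 43.4 times in replicate 2 and 30.4 times in replicate 1. Both complex II and the machinery that makes and processes mitochondrial RNA come from nuclear genes alone. None of the 4 subunits of complex II was 1.5-fold apart (median log2 ratio -0.08), with Sdha, the flavoprotein subunit, at 540 TPM in replicate 2 and 606 TPM in replicate 1. Sdhb, the iron-sulfur subunit, was at 467 TPM in replicate 2 and 559 TPM in replicate 1, and Sdhc, a membrane anchor, at 446 TPM in replicate 2 and 492 TPM in replicate 1. Of 34 genes for transcription and RNA handling in mitochondria, 0 of 34 were 1.5-fold apart (median log2 ratio -0.12), which is near the share of all genes at that size, 2.17% higher and 2.88% lower. The highest were Fastk, known to stabilise mt-Nd6 RNA, at 104 TPM in replicate 2 and 133 TPM in replicate 1 (log2 ratio -0.13), the RNase P subunit gene Hsd17b10 at 78.6 TPM in replicate 2 and 87.9 TPM in replicate 1, and Grsf1, an RNA granule protein gene, at 77.1 TPM in replicate 2 and 86.4 TPM in replicate 1.

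The authors deposited a second quantification made from the reads, and single mRNAs differed between it and the gene table in both libraries. Of the 13 mRNAs, 3 were at least 1.5-fold higher in TPM in the second table in both libraries, against 6.80% of all genes. Another 3 were at least 1.5-fold lower, against 4.35%. mt-Co2 was 6.59 times as high there in replicate 2 and 6.41 times in replicate 1, and mt-Atp6 1.69 times in replicate 2 and 1.88 times in replicate 1. mt-Co3 was at 0.549 of its gene-table level in replicate 2 and 0.619 in replicate 1. The division with the copy also differed. mt-Atp6 received over 99.9% of its pair's counts in the second table. mt-Co3 received only 32.2% in replicate 2 and 34.5% in replicate 1. The mt-Atp6 pair as a whole held fewer counts there, 498941 against 774705 in replicate 2 and 381863 against 557594 in replicate 1. The effective length of mt-Atp6 was also shorter there, 358 bases in replicate 2 and 372 in replicate 1, against 582 in the gene table. With gene and copy added, the second table was at 0.979 to 1.30 times the gene table for mt-Co1, mt-Co2, mt-Co3, mt-Atp6 and mt-Nd4 in both libraries.

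The short mRNAs also differed between the tables, and here no copy held counts in either table. mt-Nd3 was 1.60 times as high in TPM in the second table in replicate 2 and 1.96 times in replicate 1. Its counts were lower there, 34879 against 64573 in replicate 2 and 32238 against 46242 in replicate 1. Its effective length was 79.9 bases there in replicate 2 and 80.9 in replicate 1, against 249 in the gene table. mt-Nd4l was at 271 TPM in replicate 2 and 4509 TPM in replicate 1 there, 0.0230 and 0.563 of its levels in the gene table for those libraries. mt-Atp8 had a count of 0 in the second table in both libraries. The mRNAs over 500 bases that share no stretch with another gene, mt-Nd1, mt-Nd5, mt-Nd6 and mt-Cytb, were 1.06 to 1.36 times as high in the second table.

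**Figure D4:**
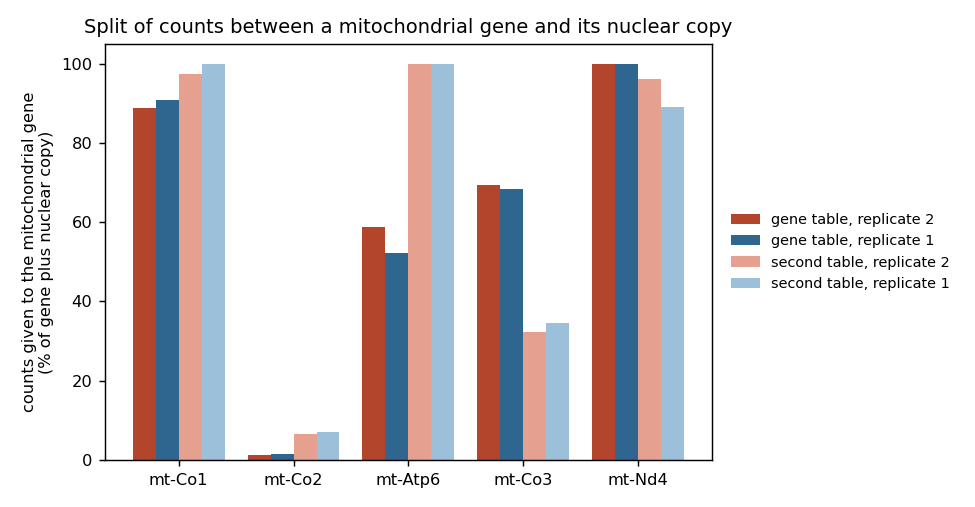
Bars give the percent of a pair's counts that went to the mitochondrial gene rather than to its nuclear copy, in the gene table and the second table, for the 5 pairs whose copy had counts in either table. In replicate 2, mt-Atp6 received 58.8% in the gene table and over 99.9% in the second, and mt-Co3 69.5% in the gene table and 32.2% in the second.

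**Figure D5:**
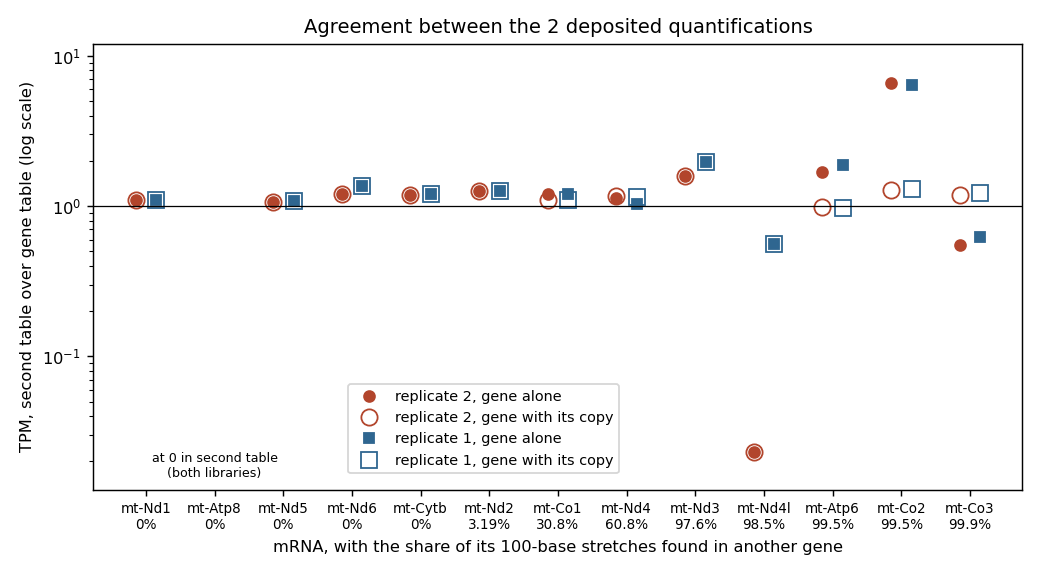
The ratio of TPM in the second table to TPM in the gene table is shown on a log axis for the 13 mRNAs, ordered by the share of their 100-base stretches found in another gene; filled symbols are the gene alone and open ones the gene with its copy, circles replicate 2 and squares replicate 1. Adding the copy brings mt-Co2, mt-Atp6 and mt-Co3 near 1, while mt-Nd3 and mt-Nd4l stay apart and mt-Atp8 is at 0 in the second table.

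The gene table's own measure of doubt was largest for mt-Co2. The posterior SD was over 1% of the posterior mean count in both libraries for 3 mRNAs, against 9.93% of all genes. They were mt-Co2 at 18.5% in replicate 2 and 14.7% in replicate 1, mt-Co3 at 2.56% in replicate 2 and 2.93% in replicate 1, and mt-Atp6 at 1.89% in replicate 2 and 1.72% in replicate 1. For the 7 measured genes that share no stretch it was at most 0.13 counts in either library, and for mt-Nd3, which shares 97.6% of its stretches, at most 0.081% of the posterior mean count. For mt-Co2 the posterior mean count was 6.10 times the expected count in replicate 2 and 7.88 times in replicate 1. The deposited TPM of all 15 measured genes lay outside its own deposited interval in both libraries, against 3.12% of all genes. mt-Rnr1, for example, was at 78620.1 TPM in replicate 2 with an interval of 76815 to 77047 TPM there, which surrounds the deposited posterior mean TPM of 76930 instead.

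Other features of the libraries moved with the mRNA difference. The tissue label fits its markers, with all 10 cardiomyocyte markers present, a summed level of 41763 TPM in replicate 2 and 49866 TPM in replicate 1 and a median log2 ratio of -0.10. Atrial markers summed to 830 TPM in replicate 2 and 1395 TPM in replicate 1. Of these, 3 of 7 were at least 1.5-fold lower in replicate 2, beside 2.88% of all genes. Among them was Nppa (atrial natriuretic peptide) at 415 TPM in replicate 2 and 769 TPM in replicate 1. The share of all genes, 2.88% lower and 2.17% higher, also stands beside the counts of the lists that follow. Beside the summed levels stands the share of TPM held by all nuclear protein-coding genes, 36.1% in replicate 2 and 41.8% in replicate 1. White adipocyte markers summed to 1563 TPM in replicate 2 and 1657 TPM in replicate 1, most of it from Lpl, lipoprotein lipase, at 1341 TPM in replicate 2 and 1367 TPM in replicate 1. Fabp4 came next at 207 TPM in replicate 2 and 216 TPM in replicate 1. Of the 9 white adipocyte markers that passed the filter on low levels, these 2 were not 1.5-fold apart, and the near-equal sums follow them. The other 7 were at least 1.5-fold lower, with Car3, carbonic anhydrase 3, at 5.05 TPM in replicate 2 and 22.4 TPM in replicate 1. Erythroid markers summed to 7050 TPM in replicate 2 and 10882 TPM in replicate 1, with 1 of 6 measured ones at least 1.5-fold lower, and macrophage markers to 115 TPM in replicate 2 and 157.5 TPM in replicate 1, with 1 of 9 lower. None of the endothelial, fibroblast, smooth muscle and pericyte or brown adipocyte markers measured was 1.5-fold apart. No marker of these lists was at 0 in both libraries. The part of these differences in the mitochondrial values was not tested.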

How the data were processed

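Per the deposited file list, each library was quantified on its own on mm10 with GENCODE M21, and the tools are not given in the sources used here. The authors deposited a gene table and a transcript table from transcriptome alignments, with expected counts, TPM, FPKM, posterior means and posterior SDs, and a second transcript table made from the reads, with estimated counts and TPM, here summed per gene. The deposited values were joined by gene ID. Where 2 IDs had the same symbol in a gene list, the one with the higher TPM was used. Library sizes were scaled by TMM (edgeR 4.0.16) on expected counts rounded to whole numbers. A log2 ratio is replicate 2 over replicate 1 with a prior count of 2. Its exact conditional binomial 95% interval covers counting error only, and reads without molecular identifiers are not independent molecules. With 2 libraries of 1 group no test was made, and genes were called by size alone, at 1.5-fold among the 12189 genes whose mean TPM reached 1. TMM scaling and the formula of the log2 ratio were tried on simulated counts, and the other steps were not. Total counts, DESeq2 1.42.0 size factors, spike-ins and the second table were tried as alternatives. All 37 mitochondrial genes are accounted for. Of the nuclear subunits of each complex the 2 highest and the lowest by mean TPM were named, of other lists up to 3. The genes and lists were chosen with earlier results of these data known.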

Additional observations from a re-analysis of the deposited data

How the results depend on the processing

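The mitochondrial share of counts was 31.9% on average, 36.2% in TPM and 35.5% with the copies' counts added. The mRNA share was 12.5%, 16.8% in TPM and 16.1% with copies. The rRNA share of mitochondrial counts was 61.1%, 53.9% in TPM and 54.9% with copies, the last chosen after seeing the data. mt-Nd6 stood at 19.2% of the plus-strand median and at 7.23% in counts, which are not per length. The mitochondrial share of subunit TPM was 77.7%, and 83.8% with the deposited TPM of the copies added. Copies held 10.2% of mitochondrial plus copy counts, and 7.87% in the second table. With 1 library left out, these ranged from 29.3 to 34.4%, 10.5 to 14.4%, 58.0 to 64.2%, 14.0 to 24.3%, 73.4 to 81.9% and 9.77 to 10.7%. The median log2 ratio of the mRNAs was 0.58, and 0.51 by total counts, 0.57 by DESeq2 size factors, 0.68 by spike-ins, 0.34 in the second table, 0.45 from deposited TPM and 0.58 over the 5 mRNAs that share no stretch, a selection added after seeing the data. The number of mRNAs at least 1.5-fold apart was 6, 3 from deposited TPM and 0 at 2-fold, and 4 to 9 under the other settings. Without a filter on low values the share of all genes at that size was 15.6% higher and 8.11% lower. Of 108 recomputed ratios of single genes 3 turned their direction: mt-Nd4l in the second table (-3.92), mt-Co2 by posterior mean count (-0.14) and mt-Rnr2 in deposited TPM (-0.030), and the cause was not tested. A ratio of 2 libraries leaves nothing when 1 is left out. No paired analysis was possible because the libraries form 1 group. Counting error was small beside the effect of how counts were divided with the copies.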
